A study of Mus musculus with 54 samples.

Results

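The 8 genes described here encode the core enzymes that place, copy and remove DNA methylation in the mouse: the methyltransferases Dnmt1, Dnmt3a and Dnmt3b, the catalytically inactive cofactor Dnmt3l, the Dnmt1 partner Uhrf1, and the dioxygenases Tet1, Tet2 and Tet3. They were found by Ensembl gene identifier and make up 8 of the 47729 genes counted. RNA-seq covered 40 libraries in 20 groups of 2, all from cXEN cells, a stem cell line of the extraembryonic endoderm. In the Gata6-FKBP and Sox17-FKBP lines the named transcription factor carries a degron tag, so that 500 nM dTAGV1 leads to its degradation. Each line was sampled after 0, 6, 24, 48, 72 and 96 h, the 0 h cells receiving DMSO. No later DMSO group and no untagged cells with dTAGV1 were sampled. Degradation, the compound and time in culture therefore cannot be told apart. The genotypes Gata6-FKBP;FoxA2-/- and Sox17-FKBP;FoxA2-/- were sampled at 0 h with DMSO and at 48 h with dTAGV1. Untreated parental cXEN cells without a tag formed another group. These 17 groups share a medium with 15% serum. A BMP4 series in N2B27 medium held cells at 0 h without BMP4, after a day in 1% serum, and cells after 24 and 72 h of 25 ng/ml BMP4 without serum. It had no group without BMP4 at 24 or 72 h, so BMP4, serum removal and culture time cannot be told apart. Its titles name XEN cells, while its genotype label gives the Gata6-FKBP line. The labels give neither the FoxA2 allele nor the number of clones behind a line, and do not say whether replicates were separate cultures. The p-values below thus rest on a spread between libraries that may be technical.

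In mammals, DNMT3A and DNMT3B add methyl groups to unmethylated CpG dinucleotides, and DNMT3L stimulates them without being able to bind the methyl donor. UHRF1 recognises the hemimethylated CpGs that replication leaves and brings in DNMT1 to copy the mark. TET enzymes oxidise methylcytosine, which opens the way to its loss by replication or base excision. Extraembryonic tissues of the mouse are known for lower DNA methylation than the embryo proper. No methylation was measured here, and every value below is an RNA level or a difference of RNA levels.

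Libraries held 16.2 to 42.5 M gene reads. Levels are given as CPM, a gene's counts per M gene reads of the library after TMM scaling, with the values of both libraries. They are compared within a gene only, since transcript lengths were not used here. Primitive endoderm markers summed to 2521 to 4298 CPM in every library. The 10 markers of pluripotent cells summed to 12.9 to 64.9 CPM per library, most in Sox17-FKBP;FoxA2-/- cells (55.8 CPM at 0 h and 63.8 CPM at 48 h, against 31.2 CPM in the line), with Nanog at most 0.246 CPM and Zfp42 at 29.1 CPM there at 0 h. The 8 trophoblast markers summed to 0.539 to 21.1 CPM, most in Gata6-FKBP;FoxA2-/- cells (18.6 CPM at 0 h against 1.76 CPM in the line, with Eomes at 14.1 CPM and Cdx2 at 0.0224 CPM in the mutant). Parental libraries stood apart: their 10 fibroblast markers summed to 1300 and 1740 CPM, against at most 5.96 CPM in any other library. Reads outside genes ran from 3.99 to 10.4 per 100 gene reads and were highest in BMP4 at 72 h. Libraries of a pair lay farthest apart in BMP4 at 24 h and Sox17 degradation at 24 h. The degraded proteins cannot be checked by RNA, and Foxa2 RNA was still present in the mutants, at 112 CPM in the Gata6-FKBP;FoxA2-/- line against 123.5 CPM in its line and at 88 CPM in the Sox17-FKBP;FoxA2-/- line against 120.2 CPM. These counts therefore do not show the FoxA2 mutation.

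All 8 genes matched the RefSeq promoter table (GRCm38.p6), with 15 annotated starts among them. Both de novo enzymes and their cofactor, on which most results below turn, are shown as the 250 bases before a start (for Dnmt3b, the 212 bases up to the gene's first annotated base), 5′ to 3′, with CpG dinucleotides in capitals. The first window lies at chr12:3806730-3806979 (plus strand) and the second at chr12:3891494-3891743 (plus strand), both before annotated Dnmt3a starts. Both lie inside the gene's annotated span, which begins at chr12:3801559, and starts are numbered within the promoter table. The Dnmt3b window is chr2:153649199-153649410 (plus strand) and the Dnmt3l window chr10:78042037-78042286 (plus strand).
Dnmt3a, the first start: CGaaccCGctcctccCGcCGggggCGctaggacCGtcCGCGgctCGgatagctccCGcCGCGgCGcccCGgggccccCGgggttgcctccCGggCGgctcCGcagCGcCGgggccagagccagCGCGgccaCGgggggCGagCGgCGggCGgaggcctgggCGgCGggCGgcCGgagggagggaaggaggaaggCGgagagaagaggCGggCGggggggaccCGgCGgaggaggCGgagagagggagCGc
Dnmt3a, the third start: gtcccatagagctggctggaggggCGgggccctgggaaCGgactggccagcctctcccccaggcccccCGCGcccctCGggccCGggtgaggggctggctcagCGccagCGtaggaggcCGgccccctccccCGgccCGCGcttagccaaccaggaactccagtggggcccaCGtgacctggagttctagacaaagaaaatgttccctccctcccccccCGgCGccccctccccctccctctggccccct
Dnmt3b: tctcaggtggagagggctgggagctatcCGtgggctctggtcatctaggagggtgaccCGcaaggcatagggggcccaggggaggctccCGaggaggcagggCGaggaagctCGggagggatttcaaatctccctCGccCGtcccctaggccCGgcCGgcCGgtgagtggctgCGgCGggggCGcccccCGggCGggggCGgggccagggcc
Dnmt3l: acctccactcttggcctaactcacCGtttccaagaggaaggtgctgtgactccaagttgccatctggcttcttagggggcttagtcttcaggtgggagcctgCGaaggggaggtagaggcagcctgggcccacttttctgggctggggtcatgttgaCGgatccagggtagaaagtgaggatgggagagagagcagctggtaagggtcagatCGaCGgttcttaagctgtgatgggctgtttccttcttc
Dnmt3a's first window held 38 CpGs, a number reached by 1.88% of the 32851 promoters in the table, and the third window held 15. The Dnmt3l window held 5 CpGs, close to the table's median of 6. Across the members, the window with the most CpGs belonged to Tet2, with 51. Motifs of the 3 studied factor families were searched on either strand. The letters AGATAA, typical of sites for factors like Gata6, stood in 9.99% of all promoters. For the Sox17 family, CATTGT was searched and stood in 10.7%. For the FoxA2 family, TGTTTAC was searched and stood in 3.17%. None of these was in the 15 member windows of 250 bases. Counts per gene do not tell which start was used.

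Dnmt3l (ENSMUSG00000000730, chr10:78042287-78063622) was the member that differed most between lines and was nearly silent in parental cells. Parental libraries held 0.485 and 0.373 CPM, the Sox17-FKBP line at 0 h 20.5 and 23.4 CPM, and the Gata6-FKBP line at 0 h 123 and 135 CPM. The highest levels were in the Gata6-FKBP;FoxA2-/- line, with 239 and 225 CPM at 0 h and 223 and 264 CPM at 48 h. No library of these lines overlapped one of another line. The Gata6-FKBP line was above parental cells by 8.20 ± 0.16 (log2 change ± SE, adjusted p = 2.9e-24 by edgeR's quasi-likelihood test with Benjamini-Hochberg adjustment over all genes, as in all tests below). The Sox17-FKBP line exceeded parental cells by 5.65 ± 0.17 (adjusted p = 3e-20), and the Gata6-FKBP line exceeded the Sox17-FKBP line by 2.55 ± 0.10 (adjusted p = 5e-18). Fibroblast markers moved with the parental group, and their part in these differences was not tested. Tags, clones and culture history cannot be told apart in a comparison of lines.

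Dnmt3l fell late in both degradation courses and in the BMP4 series, from these different starting levels. In the Gata6 course it held 144 and 139 CPM at 6 h and 139 and 142 CPM at 24 h, then 94.6 and 86.8 CPM at 48 h, 88.2 and 84.0 CPM at 72 h and 83.2 and 82.0 CPM at 96 h. All libraries from 48 h on lay below all earlier ones, and the change from 0 h was -0.50 ± 0.09 at 48 h (adjusted p = 7.7e-05) and reached -0.64 ± 0.09 at 96 h (adjusted p = 3.2e-06). In the Sox17 course it moved from 25.7 and 27.6 CPM at 6 h and 26.8 and 24.3 CPM at 24 h to 20.09 and 20.03 CPM at 48 h, 18.6 and 15.9 CPM at 72 h and 15.2 and 13.7 CPM at 96 h. Only the last time stayed called without any 1 library: the change was -0.61 ± 0.10 at 96 h (adjusted p = 2.3e-05), whereas the call at 72 h was lost without 0 h replicate 2 (adjusted p = 0.15) or 72 h replicate 2 (adjusted p = 0.16). In the BMP4 series it held 81.1 and 82.2 CPM at 0 h, 72.7 and 89.5 CPM at 24 h and 55.5 and 53.2 CPM at 72 h, a change of -0.59 ± 0.10 from 0 to 72 h (adjusted p = 5.5e-06). With reads outside genes as a covariate, the Dnmt3l change was -0.23 (adjusted p = 0.12) at 48 h of Gata6 degradation and 0.01 (adjusted p = 0.99) at 72 h of BMP4. Aire, a neighbour whose span overlaps Dnmt3l, held at most 22 reads in any library.

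**Figure D1:**
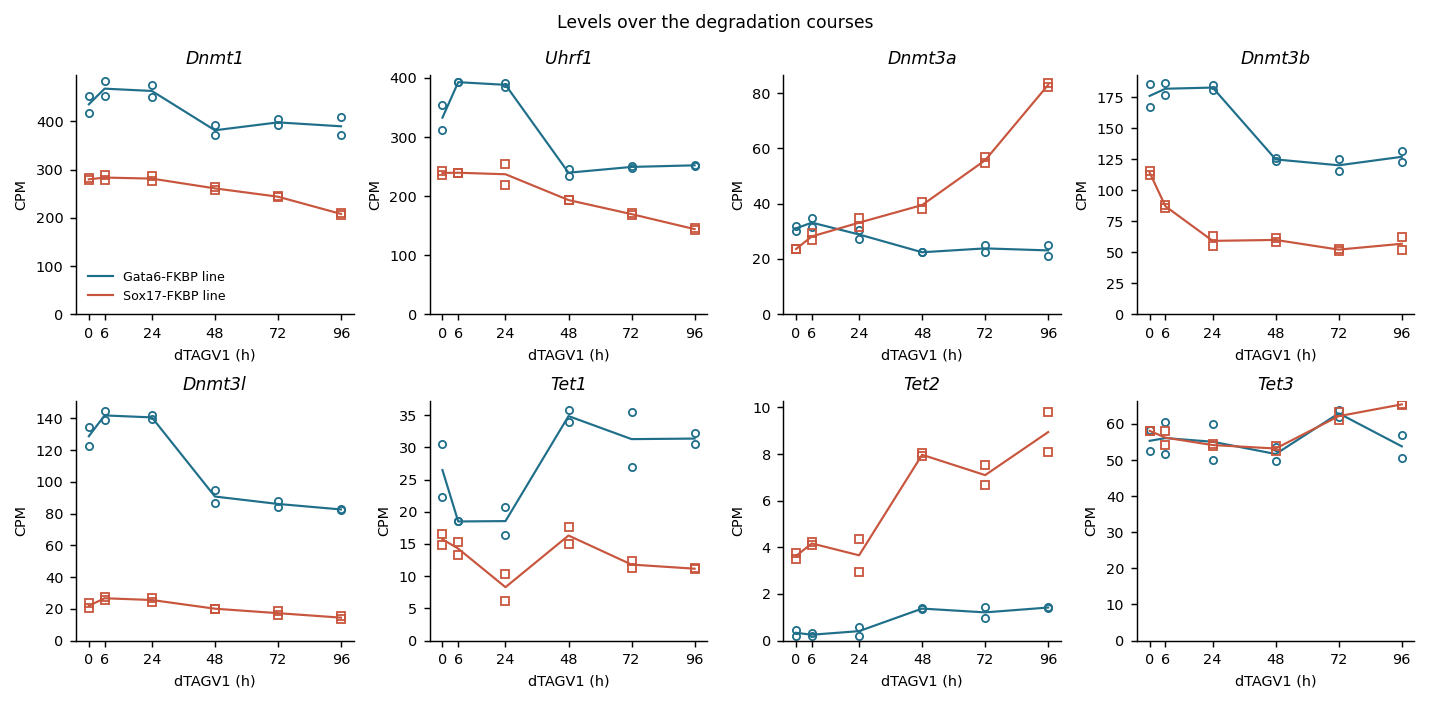
Levels of the 8 genes in CPM (linear axes from 0) against hours of dTAGV1 in the Gata6-FKBP line (blue circles) and the Sox17-FKBP line (red squares), with 1 point per library and lines through the means of 2. Dnmt3a reached 82.4 and 83.6 CPM at 96 h in the Sox17-FKBP line, while Dnmt3b there was below its 0 h level from 6 h on.

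Dnmt3a (ENSMUSG00000020661, chr12:3801559-3914443) rose through the Sox17 course. Its levels were 23.7 and 23.4 CPM at 0 h, 29.3 and 26.9 CPM at 6 h, 31.6 and 34.6 CPM at 24 h, 38.2 and 40.8 CPM at 48 h, 54.6 and 56.7 CPM at 72 h and 82.4 and 83.6 CPM at 96 h. No library of a time overlapped one of an earlier time. Against 0 h the rise was 0.49 ± 0.10 at 24 h (adjusted p = 0.00046), 1.24 ± 0.10 at 72 h (adjusted p = 7.3e-11) and 1.81 ± 0.10 at 96 h (adjusted p = 2.8e-14), while the 6 h value of 0.26 ± 0.10 did not pass (adjusted p = 0.3). In a fit to the libraries compared alone, the 24 h call was lost (adjusted p = 0.093) and the 6 h value passed (adjusted p = 0.045). It was the 1 member called from 48 to 72 h, where 6.89% of genes were called, although 6 members passed in a fit to those libraries alone and 4 with reads outside genes as a covariate. It was among 3 called from 72 to 96 h, where 2.95% were. In that last step Dnmt3a rose by 0.57 ± 0.10 (adjusted p = 0.00037), while the calls of Dnmt1 and Uhrf1 were lost without any 1 of the 4 libraries compared (adjusted p from 0.14 to 0.31). Of 8 visceral endoderm markers, 6 were called higher at 96 h and none lower. Their sum was 972.5 CPM at 0 h, 958.3 CPM at 24 h, 1074 CPM at 48 h and 1156 CPM at 96 h. Parietal markers summed to 23520 CPM at 0 h, 20900 CPM at 24 h, 33360 CPM at 48 h and 24970 CPM at 96 h. Trophoblast markers summed to 0.865 CPM at 0 h and 10.4 CPM at 96 h, of which Plet1 made up 9.76 CPM, and Cdx2 was at 0 at both times. The part of these lists in the Dnmt3a result was not tested.

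Dnmt3b (ENSMUSG00000027478, chr2:153649411-153687730) moved the other way and was the 1 member called at 6 h of Sox17 degradation, when 1.74% of genes were called. It went from 113 and 116 CPM at 0 h to 88.5 and 85.8 CPM at 6 h, 63.5 and 54.9 CPM at 24 h, 61.3 and 58.5 CPM at 48 h, 52.9 and 51.3 CPM at 72 h and 62.1 and 51.6 CPM at 96 h. All libraries under dTAGV1 lay below both 0 h libraries, and those from 24 h on did not order by time. The change was -0.39 ± 0.07 at 6 h (adjusted p = 0.0035), -0.95 ± 0.08 at 24 h (adjusted p = 4.3e-10) and -1.01 ± 0.08 at 96 h (adjusted p = 2.4e-11). The 6 h call was lost without 0 h replicate 2 (adjusted p = 0.072) or 6 h replicate 2 (adjusted p = 0.08), with values of -0.37 in either case.

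In the Gata6 course both de novo enzymes were lower from 48 h on. Dnmt3b held 167 and 186 CPM at 0 h, 187 and 177 CPM at 6 h and 181 and 185 CPM at 24 h, and then 124 and 126 CPM at 48 h, 115 and 125 CPM at 72 h and 132 and 122 CPM at 96 h. The later libraries all lay below the earlier ones, and the change from 0 h was -0.50 ± 0.08 at 48 h (adjusted p = 5.7e-06). Dnmt3a held 30.2 and 31.9 CPM at 0 h, 34.9 and 31.4 CPM at 6 h, 27.3 and 30.4 CPM at 24 h, 22.3 and 22.5 CPM at 48 h, 25.1 and 22.5 CPM at 72 h and 25.0 and 21.2 CPM at 96 h. Its change was -0.47 ± 0.10 at 48 h (adjusted p = 0.00064), again with no overlap between the times from 48 h on and those before. The Dnmt3a step from 24 to 48 h (-0.36, adjusted p = 0.0042) was lost without 24 h replicate 2 (adjusted p = 0.074) and with the covariate (adjusted p = 0.31). Its calls against 0 h were lost with the covariate at 72 h (adjusted p = 0.054) and 96 h (adjusted p = 0.069), and without replicate 2 of the later group (adjusted p = 0.084 at 72 h and 0.057 at 96 h). The responses of the lines at 48 h differed for Dnmt3a by -1.21 ± 0.14 (Gata6 minus Sox17, adjusted p = 4.8e-07) and for Dnmt3b by 0.44 ± 0.11 (adjusted p = 0.0049). These were 2 of 8 members, against 17.1% of genes. At 6 h 1 member differed, Dnmt3b, against 1.45% of genes, a call lost without any 1 of 7 of the 8 libraries (adjusted p up to 0.27).

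The BMP4 series, in which serum removal and culture time go with BMP4, showed the same pair of directions as Sox17 degradation, over 3 days. Dnmt3a held 24.2 and 28.4 CPM at 0 h, 41.8 and 39.2 CPM at 24 h and 77.0 and 79.95 CPM at 72 h, without overlap, a rise of 0.62 ± 0.10 at 24 h (adjusted p = 3.4e-05) and 1.57 ± 0.10 at 72 h (adjusted p = 4.2e-13). The 24 h call was lost in a fit to the libraries compared alone (adjusted p = 0.08). Dnmt3b held 67.8 and 72.2 CPM at 0 h, 78.2 and 78.5 CPM at 24 h and 42.5 and 42.7 CPM at 72 h. Its fall from 0 to 72 h was -0.72 ± 0.08 (adjusted p = 1.3e-08), while the value at 24 h, 0.16 ± 0.08, did not pass (adjusted p = 0.093). With the covariate of reads outside genes, Dnmt3a at 72 h stood at 1.76 (adjusted p = 2.5e-07) and Dnmt3b at -0.56 (adjusted p = 0.0086). Of the 8 visceral markers 7 rose and none fell at 72 h, and of the 6 parietal markers 5 fell and none rose, and their part in these results was not tested. Dnmt3b was also lower in N2B27 cells at 0 h than in Gata6-FKBP cells in 15% serum, by -1.33 ± 0.08 (adjusted p = 1.8e-13), 1 of the 2 members called where 41.5% of genes were. The other was Dnmt3l (-0.66 ± 0.09, adjusted p = 2.3e-06), and 4 members passed without a filter or with the covariate. Base medium, serum and culture series differ together between these groups, whose shared line rests on the genotype label alone, and cannot be told apart.

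FoxA2 mutation went with the lowest Dnmt3a levels of the series, in both lines. Dnmt3a held 13.2 and 11.4 CPM in Gata6-FKBP;FoxA2-/- cells and 11.6 and 10.5 CPM in Sox17-FKBP;FoxA2-/- cells at 0 h, with 10.2 to 12.8 CPM at 48 h of dTAGV1. All 8 mutant libraries lay below the 2 parental ones, at 16.0 and 18.7 CPM, and below every other library. Against its own line, Dnmt3a was lower by -1.34 ± 0.11 in the Gata6-FKBP background (adjusted p = 3.6e-11) and by -1.10 ± 0.10 in the Sox17-FKBP background (adjusted p = 4.3e-10). The difference between these effects, -0.24 ± 0.15, did not pass (adjusted p = 0.22). Dnmt3l was higher by 0.85 ± 0.09 (adjusted p = 1.1e-08) and by 0.89 ± 0.10 (adjusted p = 8e-09), at 40.2 and 41.1 CPM in Sox17-FKBP;FoxA2-/- cells. Cell type markers moved with the mutation. Parietal markers summed to 15870 CPM in the Gata6-FKBP mutant against 29700 CPM in its line (5 of 6 fell and 1 rose), and to 18900 CPM in the Sox17-FKBP mutant against 23520 CPM (5 fell and none rose). Of 8 visceral markers 2 rose and 3 fell in the first (median -1.68) and 2 rose and 5 fell in the second (median -2.77). Their sums were nevertheless higher, at 994.7 against 682.1 CPM and 1378 against 972.5 CPM. All 4 trophoblast markers that could be tested rose in both, with sums of 18.6 against 1.76 CPM and 7.68 against 0.865 CPM. Fibroblast markers summed to 3.73 against 0.328 CPM and 4.92 against 0.39 CPM, and of 5 pluripotent cell markers tested, 2 rose and 1 fell in the first and 4 rose in the second. The part of these markers in the member results was not tested.

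Dnmt3b differed between these backgrounds. It held 230 and 249 CPM in Sox17-FKBP;FoxA2-/- cells, above all other groups, and 177 and 180 CPM in Gata6-FKBP;FoxA2-/- cells, within the range of the Gata6-FKBP line at 0 h. The mutant effect was 1.07 ± 0.07 in the Sox17-FKBP background (adjusted p = 1.1e-12) and 0.02 ± 0.07 in the Gata6-FKBP background (adjusted p = 0.87). Their difference was -1.05 ± 0.11 (Gata6-FKBP minus Sox17-FKBP, adjusted p = 4.5e-09). In all, 4 members were called in the Gata6-FKBP background, where 48.3% of genes were, and 6 in the Sox17-FKBP background, where 50.6% were. The effects differed between backgrounds for 3 members, where 39% of genes did. Nothing particular to the members is read from these counts. Each mutant may be a single clone, so the mutation and the clone cannot be told apart.

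**Figure D2:**
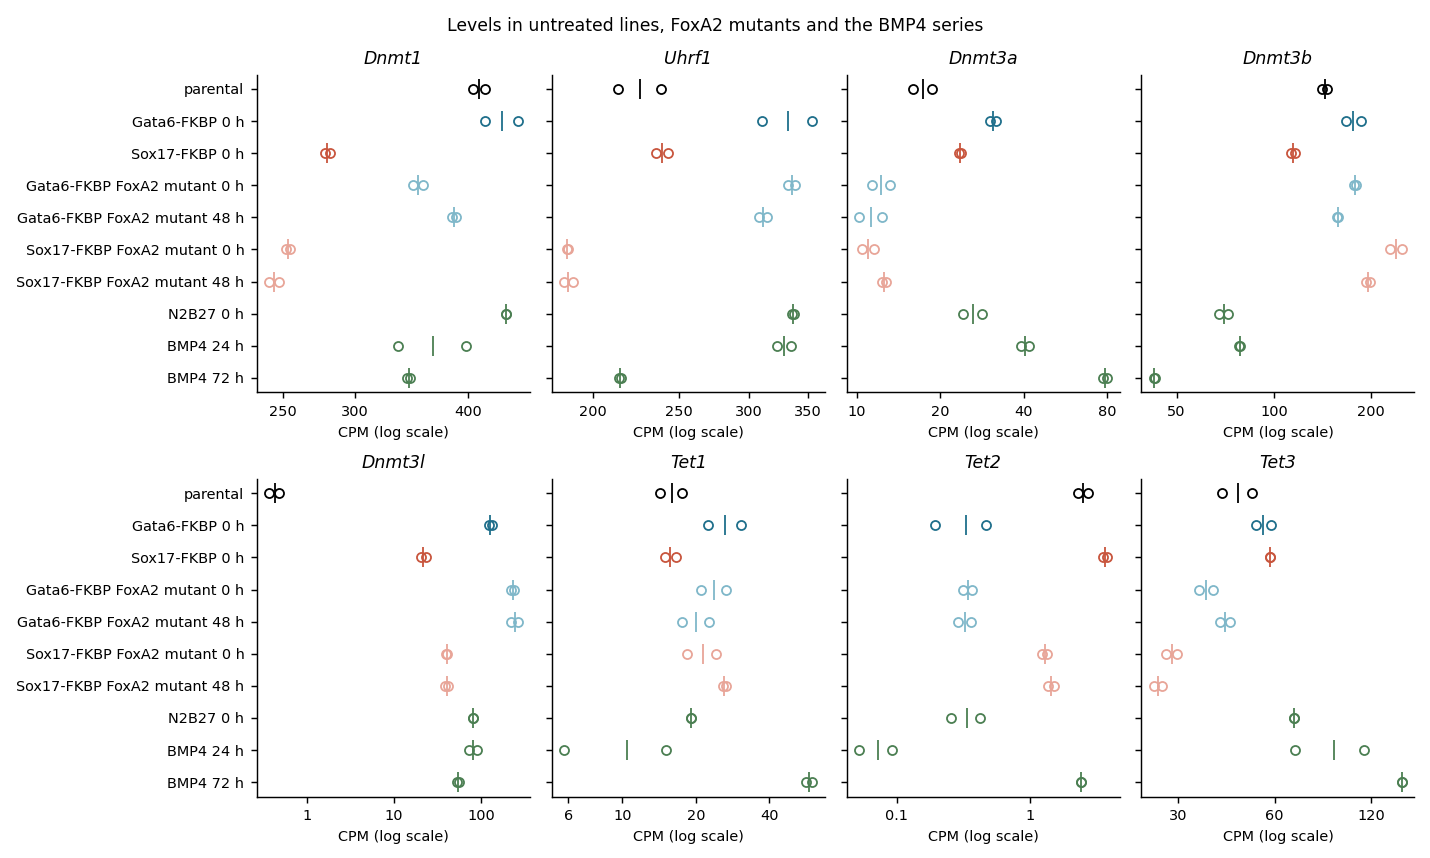
Levels of the 8 genes in CPM (log axes, ranges differ by panel) in the untreated lines, the FoxA2 mutants and the BMP4 series, with 1 circle per library and a bar at the mean of 2. Dnmt3a in the mutants lies at 10.2 to 13.2 CPM, left of every other group, and Dnmt3l in parental cells at 0.485 and 0.373 CPM.

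The balance of the de novo enzymes is shown by Dnmt3a reads per Dnmt3b read, in which sequencing depth cancels and which can be compared between libraries but says nothing of which transcript was more abundant. This ratio was chosen after the values were seen and was not tested. In the Sox17 course it was 0.211 and 0.202 at 0 h, 0.332 and 0.314 at 6 h, 0.498 and 0.631 at 24 h, 0.623 and 0.696 at 48 h, 1.03 and 1.11 at 72 h and 1.33 and 1.62 at 96 h. In the BMP4 series it was 0.357 and 0.393 at 0 h, 0.535 and 0.4997 at 24 h and 1.81 and 1.87 at 72 h. Both series moved in 1 direction over time. The 12 libraries of the Gata6 course stayed between 0.151 and 0.218, the parental libraries were at 0.114 and 0.128, and the 8 FoxA2 mutant libraries lay between 0.042 and 0.0779.

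**Figure D3:**
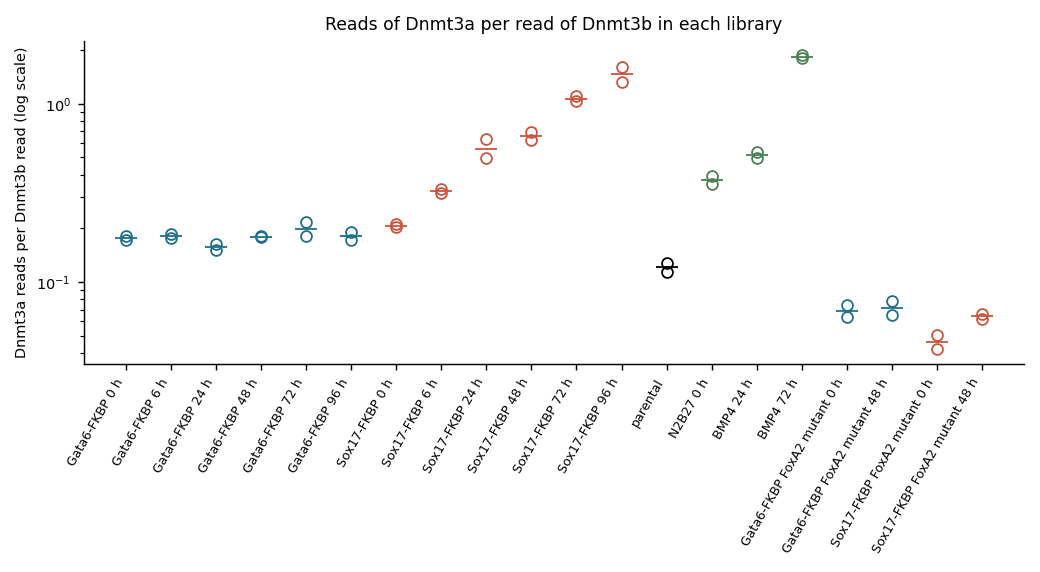
Dnmt3a reads per Dnmt3b read (log axis) in each of the 40 libraries, with a bar at the geometric mean of 2. The ratio climbs from 0.211 and 0.202 to 1.33 and 1.62 over the Sox17 course and stays between 0.151 and 0.218 in the Gata6 course.

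The maintenance pair, Dnmt1 (ENSMUSG00000004099, chr9:20907206-20959888) and Uhrf1 (ENSMUSG00000001228, chr17:56303337-56323486), varied least, with 2.25-fold and 2.73-fold between the highest and the lowest group mean. Both were highest at 6 h of Gata6 degradation and lowest at 96 h of Sox17 degradation. In the Sox17 course, Uhrf1 held 243 and 235 CPM at 0 h, 240 and 239 CPM at 6 h, 254 and 220 CPM at 24 h, 193 and 194 CPM at 48 h, 171 and 168 CPM at 72 h and 146 and 142 CPM at 96 h. From 48 h on, each time lay below the one before without overlap, and the change from 0 h reached -0.73 ± 0.06 at 96 h (adjusted p = 2.6e-10). Dnmt1 went from 282 and 278 CPM at 0 h to 209 and 207 CPM at 96 h (-0.43 ± 0.06, adjusted p = 3.4e-06).

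In the Gata6 course Uhrf1 was first higher and then lower than at 0 h. It held 311 and 354 CPM at 0 h, 393 and 392 CPM at 6 h, 391 and 385 CPM at 24 h, 245 and 234 CPM at 48 h, 251 and 248 CPM at 72 h and 252 and 253 CPM at 96 h. The groups did not overlap. Uhrf1 was the 1 member called at 6 h (0.24 ± 0.06, adjusted p = 0.014, with 13.9% of genes called) and at 24 h (0.22 ± 0.06, adjusted p = 0.012, with 21.4% called). Without 0 h replicate 1, the lower of the control libraries, these values were 0.15 (adjusted p = 0.41) and 0.13 (adjusted p = 0.35). The 6 h call was also lost without either 6 h library (adjusted p = 0.11 and 0.056), and the 24 h call without 24 h replicate 1 (adjusted p = 0.082). Both were lost in a fit to the libraries compared alone (adjusted p = 0.084 and 0.072). Without a filter both were lost too, the 6 h call narrowly (adjusted p = 0.05 after rounding) and the 24 h call at adjusted p = 0.075. The later change, -0.47 ± 0.06 at 48 h (adjusted p = 6.5e-07), stood in every alternative.

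Dnmt1 held 417 and 453 CPM at 0 h of the Gata6 course, 391 and 372 CPM at 48 h and 371 and 409 CPM at 96 h. Its change of -0.19 ± 0.06 at 48 h passed (adjusted p = 0.017), but not without 0 h replicate 2 (adjusted p = 0.21) or 48 h replicate 2 (adjusted p = 0.15), nor with median-of-ratios scaling (adjusted p = 0.055), the covariate (adjusted p = 0.061), no filter (adjusted p = 0.078) or the libraries compared alone (adjusted p = 0.083). In the BMP4 series Uhrf1 held 336 and 338 CPM at 0 h, 335 and 323 CPM at 24 h and 215 and 214 CPM at 72 h (-0.65 ± 0.06, adjusted p = 1.1e-09). Dnmt1 went from 440 and 441 to 342 and 345 CPM over that time (-0.36 ± 0.06, adjusted p = 2e-05), with 397 and 335 CPM at 24 h. In FoxA2 mutants, Dnmt1 was lower in the Gata6-FKBP background (348 and 357 CPM, -0.30 ± 0.06, adjusted p = 0.00022) and Uhrf1 in the Sox17-FKBP background (187 CPM in either library, -0.36 ± 0.06, adjusted p = 2.2e-05). For Uhrf1 these effects differed, by 0.37 ± 0.09 (Gata6-FKBP minus Sox17-FKBP, adjusted p = 0.0013).

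The TET genes did not move together. Tet2 (ENSMUSG00000040943, chr3:133463677-133545136) was nearly absent from Gata6-FKBP cells and present in Sox17-FKBP and parental cells. At 0 h the Gata6-FKBP line held 0.470 and 0.193 CPM, the Sox17-FKBP line 3.50 and 3.75 CPM, and parental cells 2.69 and 2.28 CPM. These groups did not overlap, and the Gata6-FKBP line was below the Sox17-FKBP line by -3.41 ± 0.32 (adjusted p = 6.1e-10). Tet2 rose at 48 h in both courses: to 1.40 and 1.35 CPM after Gata6 degradation (2.01 ± 0.39, adjusted p = 0.00015) and to 7.90 and 8.04 CPM after Sox17 degradation (1.13 ± 0.18, adjusted p = 1.1e-05). The Gata6 value rests on few reads: 8 and 3 in the 0 h libraries and 27 and 24 in those at 48 h. At 96 h Tet2 held 1.43 and 1.41 CPM after Gata6 degradation and 8.08 and 9.80 CPM after Sox17 degradation. A difference between these responses at 48 h, 0.88 ± 0.45, did not pass (adjusted p = 0.19).

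In the BMP4 series Tet2 rested on few reads: 12 over the 0 h libraries, 3 over those at 24 h and 98 over those at 72 h. The 72 h level was 7.22 times that at 0 h (exact 95% interval 3.95 to 14.4, counting error only), at 2.39 CPM in either library. The 24 h level was 0.223 times that at 0 h (interval 0.0403 to 0.825). In FoxA2 mutants, Tet2 was lower in the Sox17-FKBP background, at 1.23 and 1.34 CPM (-1.49 ± 0.20, adjusted p = 4.9e-07), and at 0.365 and 0.314 CPM in the Gata6-FKBP background (0.01 ± 0.51, adjusted p = 1). The value in the Gata6-FKBP background compares 8 and 7 reads in the mutant with 8 and 3 in the line.

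Tet1 (ENSMUSG00000047146, chr10:62804570-62887469) was highest after 72 h of BMP4. It held 19.1 CPM in either library at 0 h, 15.1 and 5.77 CPM at 24 h and 56.6 and 60.2 CPM at 72 h, where it stood above all other libraries of the series (1.62 ± 0.24 from 0 h, adjusted p = 1.6e-06). The 24 h value of -0.85 ± 0.26 (adjusted p = 0.01) rested on replicate 2 and was -0.33 without it (adjusted p = 0.36). In the Sox17 course Tet1 was called lower at 24 h (6.18 and 10.4 CPM against 16.6 and 14.9 CPM, -0.93 ± 0.26, adjusted p = 0.0079), a call lost without 0 h replicate 1 (adjusted p = 0.055) or 24 h replicate 1 (adjusted p = 0.21), in a fit to the libraries compared alone (adjusted p = 0.11) and with the covariate (adjusted p = 0.073). It held 12.4 and 11.2 CPM at 72 h and 11.1 and 11.2 CPM at 96 h, all below both 0 h libraries. These values of -0.41 ± 0.25 (adjusted p = 0.21) and -0.49 ± 0.25 (adjusted p = 0.12) did not pass, but did without a filter on low counts (adjusted p = 0.0091 and 0.00092) and in a fit to the libraries compared alone (adjusted p = 0.00044 and 9.8e-05), and at 96 h with the covariate (adjusted p = 0.00016). In the Gata6 course it held 30.6 and 22.4 CPM at 0 h, 18.5 CPM in either library at 6 h, 16.4 and 20.7 CPM at 24 h and 34.0 and 35.7 CPM at 48 h. The step from 24 to 48 h passed (0.91 ± 0.24, adjusted p = 0.0023) but was -0.31 with the covariate of reads outside genes (adjusted p = 0.39). No time passed against 0 h in the fit over all libraries. Without a filter, Tet1 was lower at 6 h (adjusted p = 0.002) and 24 h (adjusted p = 0.0013) and higher at 48 h (adjusted p = 0.011). With the covariate it was lower at 72 h (-0.53, adjusted p = 0.021) and 96 h (-0.70, adjusted p = 0.0074), where the fit over all libraries gave 0.24 for either time.

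Tet3 (ENSMUSG00000034832, chr6:83362373-83457208) passed none of its 10 tests against 0 h over the degradation courses in the fit over all libraries, and changed with BMP4 and in the FoxA2 mutants. The 24 libraries of these courses lay between 49.6 and 65.6 CPM. With the covariate Tet3 was lower at 48 h (-0.46, adjusted p = 0.016) and 96 h (-0.43, adjusted p = 0.03) of Gata6 degradation. In a fit to the libraries compared alone it was lower at 48 h (-0.14, adjusted p = 0.024) and higher at 96 h (0.12, adjusted p = 0.036) of Sox17 degradation. The Sox17 step from 48 to 72 h also passed with the covariate (adjusted p = 0.038) and in the fit to its libraries alone (adjusted p = 0.0042). In the BMP4 series it held 68.9 CPM in either library at 0 h, 114 and 69.2 CPM at 24 h and 149 and 150 CPM at 72 h (1.12 ± 0.14, adjusted p = 6.3e-08). The call at 24 h (0.41 ± 0.14, adjusted p = 0.015) rested on replicate 1 and was 0.01 without it (adjusted p = 1). FoxA2 mutants held 34.9 and 38.5 CPM in the Gata6-FKBP background (-0.59 ± 0.14, adjusted p = 0.00091) and 29.7 and 27.5 CPM in the Sox17-FKBP background (-1.02 ± 0.14, adjusted p = 3.3e-07). With reads outside genes as a covariate, the 72 h BMP4 values were -0.26 for Tet1 (adjusted p = 0.65) and 0.35 for Tet3 (adjusted p = 0.34). Those reads stood at 10.3 and 10.4 per 100 gene reads at 72 h against 5.64 and 5.69 at 0 h, and cannot be told apart from that group.

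Over all members, the shares called were read against those of all 14625 genes tested, of which all 8 members were part. After Gata6 degradation 6 of 8 were called at 48 h (40.1% of genes called), 5 at 72 h (39.6%) and 6 at 96 h (40.3%). After Sox17 degradation 3 were called at 24 h (30.4%), 4 at 48 h (30.9%), 6 at 72 h (36.1%) and 6 at 96 h (40.5%). The 24 h count was 1 in a fit to the libraries compared alone. With BMP4, 5 were called at 24 h (43.6%) and 8 at 72 h (62.8%). The BMP4 count at 24 h was 2 without 24 h replicate 2, 3 without 0 h replicate 1 and 0 in a fit to the libraries compared alone, whose filter left out Tet2. The count at 72 h was 5 with the covariate. All comparisons of a course share its 0 h libraries. The Gata6-FKBP line differed from parental cells in 6 members (47.8%), the Sox17-FKBP line in 6 (57.1%), and these lines from each other in 7 (48%).

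Between successive times, 7 members were called from 24 to 48 h of the Gata6 course, where 54.1% of genes were. With the covariate 4 were, and genes called went from 7912 to 3336. No member was called from 6 to 24 h (0.0274% of genes), from 48 to 72 h (0%) or from 72 to 96 h (0%). In these last steps edgeR had 884 and 1222 genes at an unadjusted p under 0.05, and DESeq2 called 2 and 49. Without a filter on low counts, edgeR called 118 and 324 genes. Over the Sox17 course 2 members were called from 6 to 24 h (13% of genes) and 5 from 24 to 48 h (33.2%). Without 24 h replicate 1 these counts were 1 and 1, and in a fit to the libraries compared alone 0 and 1. Without either 6 h library the earlier count was 1, without 48 h replicate 1 or 2 the later one was 3 or 2, and with the covariate the later one was 2. From 24 to 72 h of BMP4, 7 were called (70.3%), and 3 with the covariate.

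In the FoxA2 mutants few member tests passed after 48 h of degradation. No member was called in Gata6-FKBP;FoxA2-/- cells, where 0.239% of genes were (35, with 1369 at an unadjusted p under 0.05, and 116 by DESeq2). Dnmt3b alone was called in Sox17-FKBP;FoxA2-/- cells (199 and 193 CPM against 230 and 249 CPM, -0.29 ± 0.07, adjusted p = 0.027), where 2.76% of genes were, and was lost without 0 h replicate 2 (adjusted p = 0.39) or either 48 h library (adjusted p = 0.13 and 0.26), and without a filter (adjusted p = 0.078). The difference between mutant and line responses itself passed for 5 members with Gata6 degradation (27% of genes) and for 4 with Sox17 degradation (14.4%). For Gata6 degradation the count was 2 with the covariate, 1 in a fit to the libraries compared alone, 2 without line 0 h replicate 2 and 3 without mutant 0 h replicate 1, and for Sox17 degradation it was 2 without line 0 h replicate 1. With Sox17 degradation, these were Dnmt3a (-0.55 ± 0.14, adjusted p = 0.0093), Dnmt3b (0.64 ± 0.11, adjusted p = 8.4e-05), Uhrf1 (0.31 ± 0.09, adjusted p = 0.016) and Tet2 (-0.99 ± 0.29, adjusted p = 0.019). With Gata6 degradation, Dnmt3l showed the difference with the smallest adjusted p of 0.0014 (0.58 ± 0.13), going from 239 and 225 to 223 and 264 CPM in the mutant. That call was lost with the covariate (adjusted p = 0.23).

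**Figure D4:**
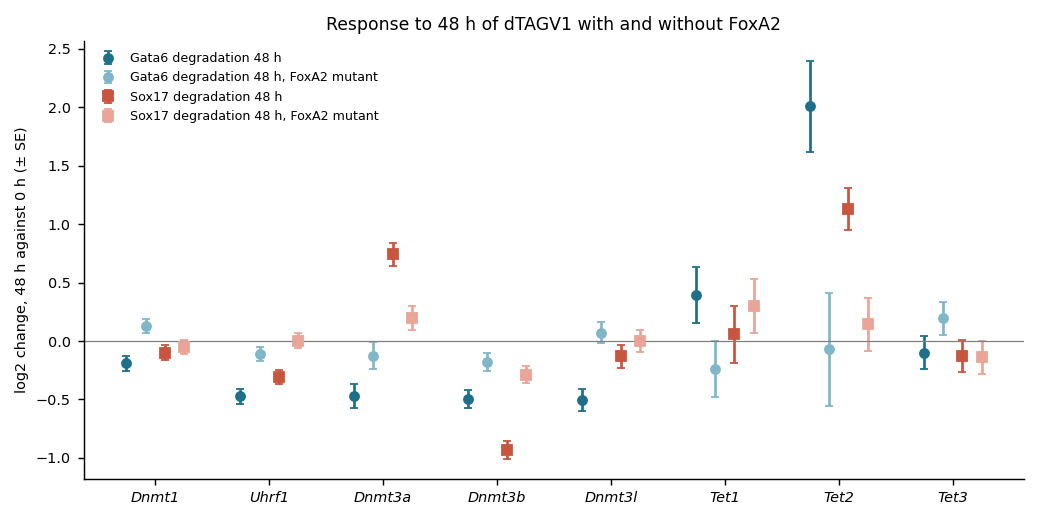
Log2 change ± SE from 0 to 48 h of dTAGV1 for each gene, in the Gata6-FKBP line (dark blue), the Sox17-FKBP line (dark red) and their FoxA2 mutants (pale), from 2 libraries per group. Dnmt3a lies at 0.74 in the Sox17-FKBP line and at 0.20 in its mutant, and Tet2 at 2.01 in the Gata6-FKBP line and at -0.07 in its mutant. Tet2 rests on 8 and 3 reads in the Gata6-FKBP line at 0 h and on 6 to 8 reads in each library of its mutant. The call of a difference between line and mutant was lost for Tet2 with the covariate of reads outside genes. For Dnmt3a it was lost without Sox17-FKBP mutant 0 h replicate 1.

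Genes of related pathways were counted over fixed lists, with no test of a list. The share of all genes called, against which each count is read, was 40.1% at 48 h of Gata6 degradation, 40.5% at 96 h of Sox17 degradation and 62.8% at 72 h of BMP4, and the medians of all genes there were 0.00, 0.06 and 0.00. Of 25 DNA replication genes, whose products work in the S phase in which Dnmt1 and Uhrf1 also act, 18 fell and none rose at 48 h of Gata6 degradation (median -0.42). At 96 h of Sox17 degradation 22 fell and none rose (median -0.51), and at 72 h of BMP4 17 fell and 3 rose (median -0.61). Ccna2, cyclin A, went from 293 to 152 CPM after Gata6 degradation (-0.95 ± 0.05, adjusted p = 5.8e-14), and Ccne1, cyclin E, from 68.1 to 28.1 CPM after Sox17 degradation (-1.27 ± 0.09, adjusted p = 4.5e-12). The part of these genes in the Dnmt1 and Uhrf1 results was not tested.

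Of 16 genes that supply the methyl donor of the DNMTs or the 2-oxoglutarate used by the TETs, 12 fell and none rose at 48 h of Gata6 degradation (median -0.41). Among them, Mthfd1 of the folate cycle went from 180 to 78.7 CPM (-1.19 ± 0.07, adjusted p = 2e-13) and Ahcy, which clears the product of methylation, from 160 to 78.0 CPM (-1.04 ± 0.10, adjusted p = 5.8e-09). At 96 h of Sox17 degradation 10 fell and 3 rose (median -0.29), and at 72 h of BMP4 9 fell and 3 rose (median -0.21). Of 11 base excision genes, 4 fell and 1 rose at 48 h of Gata6 degradation (median -0.11), near the share over all genes, with Parp1 at 213 and 99.0 CPM (-1.10 ± 0.06, adjusted p = 9.4e-14) and the glycosylase Neil2 rising from 3.94 to 11.1 CPM (1.5 ± 0.21, adjusted p = 1.9e-06). At 96 h of Sox17 degradation, 4 fell and 3 rose (median -0.10), Gadd45a among those that rose, from 19.3 to 48.9 CPM (1.34 ± 0.10, adjusted p = 6.9e-12).

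Of 10 genes for readers of methylated DNA or relatives of such readers, 8 rose and 1 fell at 72 h of BMP4 (median 0.70). Uhrf2, the paralogue of Uhrf1, rose by 0.92 ± 0.08 (adjusted p = 1e-10), while Mbd3 of the NuRD complex fell from 216 to 95.5 CPM (-1.17 ± 0.12, adjusted p = 2.8e-09). At 48 h of Gata6 degradation 4 rose and 1 fell (median 0.29), and at 96 h of Sox17 degradation 3 rose and 1 fell (median 0.25), both near the share over all genes. Of the 15 recruiters and remodellers tested out of 16 listed, 1 rose and 7 fell at 96 h of Sox17 degradation (median -0.26). Cxxc5, a CXXC protein that binds unmethylated CpG, rose from 3.01 to 12.3 CPM (2.01 ± 0.11, adjusted p = 3.4e-14), and Cdca7, which activates the remodeller Hells, fell from 39.5 to 17.03 CPM (-1.21 ± 0.09, adjusted p = 4.2e-12). Cxxc5 also rose at 72 h of BMP4, from 10.2 to 34.4 CPM (1.76 ± 0.10, adjusted p = 3.4e-14).

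Germline genes known to be silenced by promoter methylation stayed low, at 7.04 to 33.7 CPM summed over 20 genes in a library, and 11 of the 20 could be tested. Between Sox17-FKBP;FoxA2-/- cells and their line 9 rose and 1 fell (median 2.50, all genes 0.02, with 50.6% of genes called), where Dnmt3b was higher and Dnmt3a lower. Asz1 went from 2.12 to 11.98 CPM (2.52 ± 0.20, adjusted p = 1.5e-11), Stag3 from 1.08 to 6.28 CPM (2.50 ± 0.24, adjusted p = 7.1e-10) and Slc25a31 from 0.331 to 3.80 CPM (3.51 ± 0.37, adjusted p = 4e-09). Between Gata6-FKBP;FoxA2-/- cells and their line, where Dnmt3a was also lower, 1 rose and 1 fell (48.3% of genes called). At 48 h of Gata6 degradation 5 rose and none fell (40.1% of genes called), with Brdt going from 1.81 to 4.74 CPM (1.39 ± 0.22, adjusted p = 7.5e-06). At 72 h of BMP4, where Dnmt3a was higher and Dnmt3b lower, 6 rose and none fell (62.8% called). Both counts were near the share over all genes. A count over the 11 tested genes leaves out those too low to test. The part of the members in these counts was not tested.

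Ranked over the 20 groups, Dnmt3a ran from 83.0 CPM at 96 h of Sox17 degradation to 11.01 CPM in Sox17-FKBP;FoxA2-/- cells at 0 h (7.53-fold), and Dnmt3b from 239 CPM in the latter to 42.6 CPM at 72 h of BMP4 (5.61-fold). Of 19 pairs of neighbours in that order, the libraries overlapped in 13 for Dnmt3a, 9 for Dnmt3b, 7 for Dnmt3l, 11 for Dnmt1, 9 for Uhrf1, 15 for Tet1, 10 for Tet2 and 11 for Tet3. Across group means of log2(CPM + 0.5), Pearson's r was -0.80 between Dnmt3a and Dnmt3b, 0.86 between Dnmt1 and Uhrf1 and 0.81 between Dnmt3a and Tet3. These are descriptions over 20 groups that share lines and controls. The genes most like Dnmt3a by this measure were Eps8l2 (r = 0.90), Ttc38 and Tmem140, and those most like Dnmt3b were Rps3a1 (r = 0.94), Orc6 and Abhd5. Uhrf1 was most like Daxx (r = 0.96), Mcm2 and Tmem183a, and Dnmt1 most like Sept9 (r = 0.96), Cand1 and Sox17. For Dnmt3l these were Atp6v1e1 (r = 0.91), Cend1 and Poc5, for Tet1 Tnpo1 (r = 0.95), Wdr19 and Appbp2, for Tet2 Tbc1d8b (r = 0.97), Kitl and Mtmr6, and for Tet3 Rbp4 (r = 0.94), Arid1b and Six5.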

How the data were processed

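RNA-seq of 40 libraries was analysed, and 14 chromatin samples were not analysed here. Per the submitters' processing notes, reads were aligned with HISAT2 to mm10 and counted with HTSeq, and versions, annotation release and strand setting are not given in the sources used here. The deposited values are raw counts for 47729 Ensembl genes, of which 47224 had a symbol in the table used. HTSeq's summary lines, with 3.99 to 10.4 reads outside genes per 100 gene reads, were kept out of library sizes. A quasi-likelihood model of edgeR 4.0.16 (R 4.3.3) with 1 mean for each group was fitted to the 40 libraries together, after TMM scaling and filterByExpr, which kept 14625 genes, 20 residual degrees of freedom and a biological coefficient of variation of 8.22%. Calls were made at 0.05 on p-values adjusted by Benjamini-Hochberg over all genes of a comparison. SE is the log2 change over the square root of F. The procedure was tested on simulated data. Each member test, and the number of genes called, was recomputed with median-of-ratios scaling, without a filter, with DESeq2 1.42.0, in a fit to the libraries compared alone, with a replicate block, with the log2 of reads outside genes as a covariate, and leaving out each library. Counts over gene lists and markers, the genes named from lists and the correlations were not recomputed.

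Members and gene lists were chosen with earlier results of these data known. Text names all members, Foxa2 as a label check, up to 4 called genes with the smallest adjusted p per list, and the 3 genes of at least 5 CPM most correlated with each member. Outside that rule it names Aire, which overlaps Dnmt3l, and the single cell type markers Nanog, Zfp42, Eomes, Cdx2 and Plet1. Coordinates came from RefSeq on GRCm38.p6. Sequencing depth of 16.2 to 42.5 M gene reads leaves counting error small for the members other than Tet2 and, in parental cells, Dnmt3l. Intervals cover counting error only.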

Additional observations from a re-analysis of the deposited data

Results flagged for a closer look

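In each case below, a response or a mutant effect differed between the 2 lines or between a line and its mutant, by edgeR's test of the difference of log2 changes (± SE, Benjamini-Hochberg adjusted p over all genes, 2 libraries per group).

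Responses to Gata6 and to Sox17 degradation differed (Gata6 minus Sox17) for Dnmt3b at 6 h by 0.44 ± 0.11 (adjusted p = 0.035), the 1 member called, where 1.45% of genes were. That call was lost without any 1 of 7 of the 8 libraries compared, at adjusted p up to 0.27. At 48 h they differed for Dnmt3b by 0.44 ± 0.11 (adjusted p = 0.0049) and for Dnmt3a by -1.21 ± 0.14 (adjusted p = 4.8e-07).

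The response to 48 h of Gata6 degradation in the FoxA2 mutant, minus that in its line, was 0.32 ± 0.09 for Dnmt1 (adjusted p = 0.0081), 0.36 ± 0.09 for Uhrf1 (adjusted p = 0.0026), 0.32 ± 0.11 for Dnmt3b (adjusted p = 0.028), 0.58 ± 0.13 for Dnmt3l (adjusted p = 0.0014) and -2.08 ± 0.64 for Tet2 (adjusted p = 0.017). Without line 0 h replicate 2, Dnmt1 (adjusted p = 0.06), Dnmt3b (adjusted p = 0.16) and Tet2 (adjusted p = 0.12) were lost. The Dnmt3b call was lost without 5 other libraries too, and Tet2 without mutant 0 h replicate 1 (adjusted p = 0.075). With the covariate of reads outside genes, Dnmt3l (adjusted p = 0.23), Uhrf1 (adjusted p = 0.083), Dnmt3b (adjusted p = 0.19) and Tet2 (adjusted p = 0.12) were lost. In a fit to the libraries compared alone, Uhrf1 (adjusted p = 0.051), Dnmt1 (adjusted p = 0.056), Dnmt3b (adjusted p = 0.074) and Tet2 (adjusted p = 0.058) were. Each of the 5 calls was thus lost in at least 1 alternative.

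For Sox17 degradation the same difference was 0.31 ± 0.09 for Uhrf1 (adjusted p = 0.016), -0.55 ± 0.14 for Dnmt3a (adjusted p = 0.0093), 0.64 ± 0.11 for Dnmt3b (adjusted p = 8.4e-05) and -0.99 ± 0.29 for Tet2 (adjusted p = 0.019). Dnmt3a was lost without mutant 0 h replicate 1 (adjusted p = 0.061), Uhrf1 without line 0 h replicate 1 (adjusted p = 0.065) or mutant 48 h replicate 1 (adjusted p = 0.063) or a filter (adjusted p = 0.088), and Tet2 without any 1 of 4 libraries, at adjusted p up to 0.1.

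The effect of FoxA2 mutation in untreated cells differed between backgrounds (Gata6-FKBP minus Sox17-FKBP) by 0.37 ± 0.09 for Uhrf1 (adjusted p = 0.0013), -1.05 ± 0.11 for Dnmt3b (adjusted p = 4.5e-09) and 1.5 ± 0.55 for Tet2 (adjusted p = 0.032), 3 members where 39% of genes were called. The Tet2 call was lost without any 1 of 5 libraries, at adjusted p up to 0.2, and without a filter (adjusted p = 0.072).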

How the results depend on the processing

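The value followed was the number of member tests called. It was 20 of 24 in the BMP4 course and 12 with the covariate of reads outside genes. In the FoxA2 mutants under degradation it was 1 of 16, and 0 without a filter on low counts. Leaving out a library gave 17 to 19 calls of 40 in the Gata6 course, 17 to 20 of 40 in the Sox17 course, 18 to 20 with BMP4, 0 to 1 in the mutants under degradation, 10 to 10 of 16 for FoxA2 mutation, 18 to 22 of 32 between lines and media, 12 to 16 of 40 for differences of responses and 13 to 18 of 64 for steps between times. There, a group's lone library is assumed to vary like the others, and comparisons that do not use the library left out keep their value. Signs were compared only for member values called in the fit over all libraries or in the alternative. Of these, 8 changed sign, all with the covariate: Tet1 to -0.53 at 72 h and -0.70 at 96 h of Gata6 degradation, -0.31 from 24 to 48 h, -0.26 at 72 h of BMP4 and -0.049 between the Gata6-FKBP line and parental cells, Dnmt3l to 0.011 (BMP4, 72 h against 0 h) and 0.17 (72 h against 24 h), and Tet3 to -0.23 (72 h against 24 h). The cause was not tested. Scaling by median of ratios changed the sign of no value called in either fit, lost 2 member calls and gained 4. It moved the log2 change of Dnmt1 by at most 0.063 in any comparison. Replicate numbers did not pair libraries: over 29 comparisons the correlation of replicate deviations ran from -0.638 to 0.537. The replicate block lost 4 calls: Dnmt1 at 96 h of Gata6 degradation (adjusted p = 0.052) and from 72 to 96 h of Sox17 degradation (adjusted p = 0.055), Tet1 from 6 to 24 h (adjusted p = 0.055) and Dnmt3a from 24 to 48 h of Sox17 degradation (adjusted p = 0.053).

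Over all genes, calls at 24 h of BMP4 went from 6371 to 259, and at 24 h of Sox17 degradation from 4451 to 625, in a fit to the libraries compared alone. Calls at 72 h of BMP4 went from 9185 to 2622 with the covariate, and those in Gata6-FKBP;FoxA2-/- cells from 35 to between 0 and 121. Depth limits Tet2 most, with 1 read in its lowest library.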
